A study of Homo sapiens with 8 samples.

Results

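The genes described here, 7 genes of bile acid handling, were followed in Caco-2 cells that had been given a CRTC1 plasmid. They were SLC10A2, FABP6, SLC51A, SLC51B, FGF19, CYP7A1 and CYP27A1, found by symbol in the platform annotation, with 1 probe set each. These 7 of 22458 named genes were chosen for their role in bile acid transport, signalling and synthesis, with earlier results of these data known. Caco-2 is a human colon carcinoma line, used here as clone TC7, and the cells were subconfluent when 200 ng of plasmid was left on them overnight. The CRTC1 group (4 arrays) received the CRTC1 expression plasmid and the empty vector group (4 arrays) received pBS. All 8 samples came from the same line and carried no other treatment. The expression arrays were read as log2 expression, and the array medians over named genes lay between 4.14 and 4.19. What share of cells took up plasmid is not stated in the labels, so each value averages transfected and untransfected cells. In such bulk RNA, fewer cells expressing a gene and less RNA per cell cannot be told apart. The labels do not say that replicates were separate cultures. The p-values therefore set the group difference only against the spread of these 8 samples, and that spread may be technical.

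Bile acids are made from cholesterol in the liver, secreted into the gut and recovered in the ileum. SLC10A2 (also ASBT) carries them across the apical membrane of the enterocyte with sodium. FABP6, the ileal bile acid-binding protein, holds them in the cytosol, and SLC51A and SLC51B, which form the heteromeric transporter OST alpha-beta, release them at the basolateral side. Inside the cell bile acids activate the nuclear receptor FXR, which raises FABP6, both SLC51 genes and FGF19. FGF19 is a hormone that travels to the liver and restrains CYP7A1, the rate-limiting enzyme of the classic synthesis pathway. CYP27A1, the mitochondrial sterol hydroxylase, starts the alternative pathway. Caco-2 cells are known to take on enterocyte properties, bile acid transport among them, as they stay confluent. CRTC1 joins CREB on cAMP response elements as its coactivator.

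Because CREB and FXR act through short DNA words, the 250 bases in front of the RefSeq start (GRCh38.p14) were read for the members that had a window in the table, namely SLC10A2, FABP6, SLC51A, SLC51B and CYP27A1. Of these 5 windows, 3 are shown to set a pair of windows that share an FXR-like word beside the SLC51A window, which lacks it. Capitals mark that word, an inverted repeat spelled GGTNANTNACC, in the FABP6 and SLC51B windows. The 3 windows lie on the plus strand, FABP6 at chr5:160229256-160229505, SLC51A at chr3:196216284-196216533 and SLC51B at chr15:65045137-65045386.
FABP6: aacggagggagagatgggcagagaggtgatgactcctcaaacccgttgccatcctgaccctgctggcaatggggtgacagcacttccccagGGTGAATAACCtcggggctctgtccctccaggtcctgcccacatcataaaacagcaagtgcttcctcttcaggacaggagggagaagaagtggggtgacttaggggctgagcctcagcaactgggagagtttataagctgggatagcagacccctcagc
SLC51B: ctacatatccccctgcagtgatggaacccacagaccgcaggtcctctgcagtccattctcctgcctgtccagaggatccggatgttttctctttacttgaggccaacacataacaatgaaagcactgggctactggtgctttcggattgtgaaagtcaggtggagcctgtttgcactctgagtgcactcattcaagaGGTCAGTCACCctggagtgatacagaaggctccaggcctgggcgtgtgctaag
SLC51A: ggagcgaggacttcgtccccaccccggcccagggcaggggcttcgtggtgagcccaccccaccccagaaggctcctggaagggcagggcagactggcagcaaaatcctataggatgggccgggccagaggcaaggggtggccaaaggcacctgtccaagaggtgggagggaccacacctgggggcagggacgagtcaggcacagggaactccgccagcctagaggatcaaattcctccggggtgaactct
FXR is known to bind inverted repeats of words close to AGGTCA, and FABP6 has long been described as carrying such a repeat in its proximal promoter. The match lay 159 to 149 bases before the start in FABP6 and 53 to 43 bases before it in SLC51B. In SLC51B it overlapped the hexamer AGGTCA, found at 54 to 49 bases, and the hexamer was not found in the other 4 windows on either strand. Of 34943 distinct RefSeq windows of the same length, 0.163% held the inverted repeat and 12.1% the hexamer, both strands searched. The repeat was spelled after these windows had been read, so its rarity is a description and no test. The full cAMP response element TGACGTCA, held by 1.63% of windows, and its short form TGACG, held by 21.2%, were found in 0 of the 5 windows on either strand. That says only that these letters are not in these 250 bases. The FABP6 window lies in front of a start inside the annotated gene, which has 3 curated transcripts. The array gives 1 value per gene, so FABP6 transcripts from different starts cannot be told apart.

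The plasmid gene was checked first. CRTC1 signal lay at 12.52, 11.78, 11.70 and 11.46 on the CRTC1 arrays, against 5.48, 5.63, 6.30 and 6.19 on the empty vector arrays, which matches the labels. The log2 change was 5.97 (95% interval 5.40 to 6.54). In limma's moderated test CRTC1 was the 1 gene of 22458 with an adjusted p under 0.05, a share of 0.00445%. Epithelial markers were present in both groups, with VIL1, the microvillus protein villin, at 9.44 to 9.54 in CRTC1 cells and 9.51 to 9.63 in empty vector cells. CDX2, the intestinal homeobox factor, lay at 7.41 to 7.70 in CRTC1 cells and 7.33 to 7.77 in empty vector cells. Of 17 enterocyte markers 11 had a mean at or above the median level of all genes and 6 lay under it. Of the 11, the peptidase gene DPP4 lay at 8.37 to 8.77 in CRTC1 cells and 8.45 to 8.84 in empty vector cells. Of those 6, the sucrase-isomaltase gene SI lay at 2.50 to 3.03 in CRTC1 cells and 2.55 to 3.23 in empty vector cells, and the lactase gene LCT at 2.69 to 2.81 in CRTC1 cells and 2.52 to 2.74 in empty vector cells, all under the array medians. The linear signal summed over 17 enterocyte markers ran from 4901 to 5878 in CRTC1 cells and from 5065 to 5889 in empty vector cells. Over 11 hepatocyte genes the sum was 927.7 to 1348 in CRTC1 cells and 1007 to 1398 in empty vector cells, and over 8 leukocyte genes 234.6 to 274.7 in CRTC1 cells and 255.7 to 305.8 in empty vector cells. Over 8 fibroblast genes it was 91.75 to 101.6 in CRTC1 cells and 84.83 to 103.3 in empty vector cells, and over 6 endothelial genes 49.95 to 59.37 in CRTC1 cells and 45.52 to 50.94 in empty vector cells. The ranges of the groups overlapped in all 5 lists, and 0 marker genes passed in limma after adjustment. At an unadjusted p under 0.05 there were 4, where 5.94% of all genes reached that level. They were 1 of 11 hepatocyte genes (HPX), 1 of 8 leukocyte genes (FCER1G), 1 of 8 fibroblast genes (PDGFRB) and 1 of 6 endothelial genes (CLDN5). Of the 17 enterocyte markers 0 reached it. These 4 genes were named after their values were seen. The defining leukocyte gene PTPRC lay at 1.71 to 2.03 in CRTC1 cells and 1.80 to 2.09 in empty vector cells. Of the 8 leukocyte genes 2, CD68 and LYZ, had a mean at or above the median level of all genes. CD68 lay at 7.19 to 7.53 in CRTC1 cells and 7.30 to 7.61 in empty vector cells. Of the 11 hepatocyte genes 4 did, with TTR the highest at 9.02 to 9.86 in CRTC1 cells and 9.21 to 9.90 in empty vector cells.

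None of the 7 bile acid genes differed between CRTC1 and empty vector cells beyond the spread between arrays. In limma's test over all genes 0 of 7 passed, with adjusted p-values from 0.852 to 0.981, and 0 of 7 reached an unadjusted p under 0.05. Over all genes 5.94% reached that unadjusted p, 3.2% with a higher and 2.73% with a lower level in CRTC1 cells. The groups of arrays overlapped for all 7 members, while they were fully apart for 3.74% of all genes. Of the members 5 had a lower mean in CRTC1 cells and 2 a higher one, with a median log2 change of -0.12, against -0.01 over all genes tested, of which 51.4% had a lower mean. All 7 confidence intervals lay within a 2-fold change in either direction, and 5 of them within 1.5-fold. For 5 members the mean level lay below 4.16, the middle of all genes, and the table held no detection calls, so for those 5 signal and background could not be separated. Only FABP6 and SLC51B lay above that level.

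**Figure D1:**
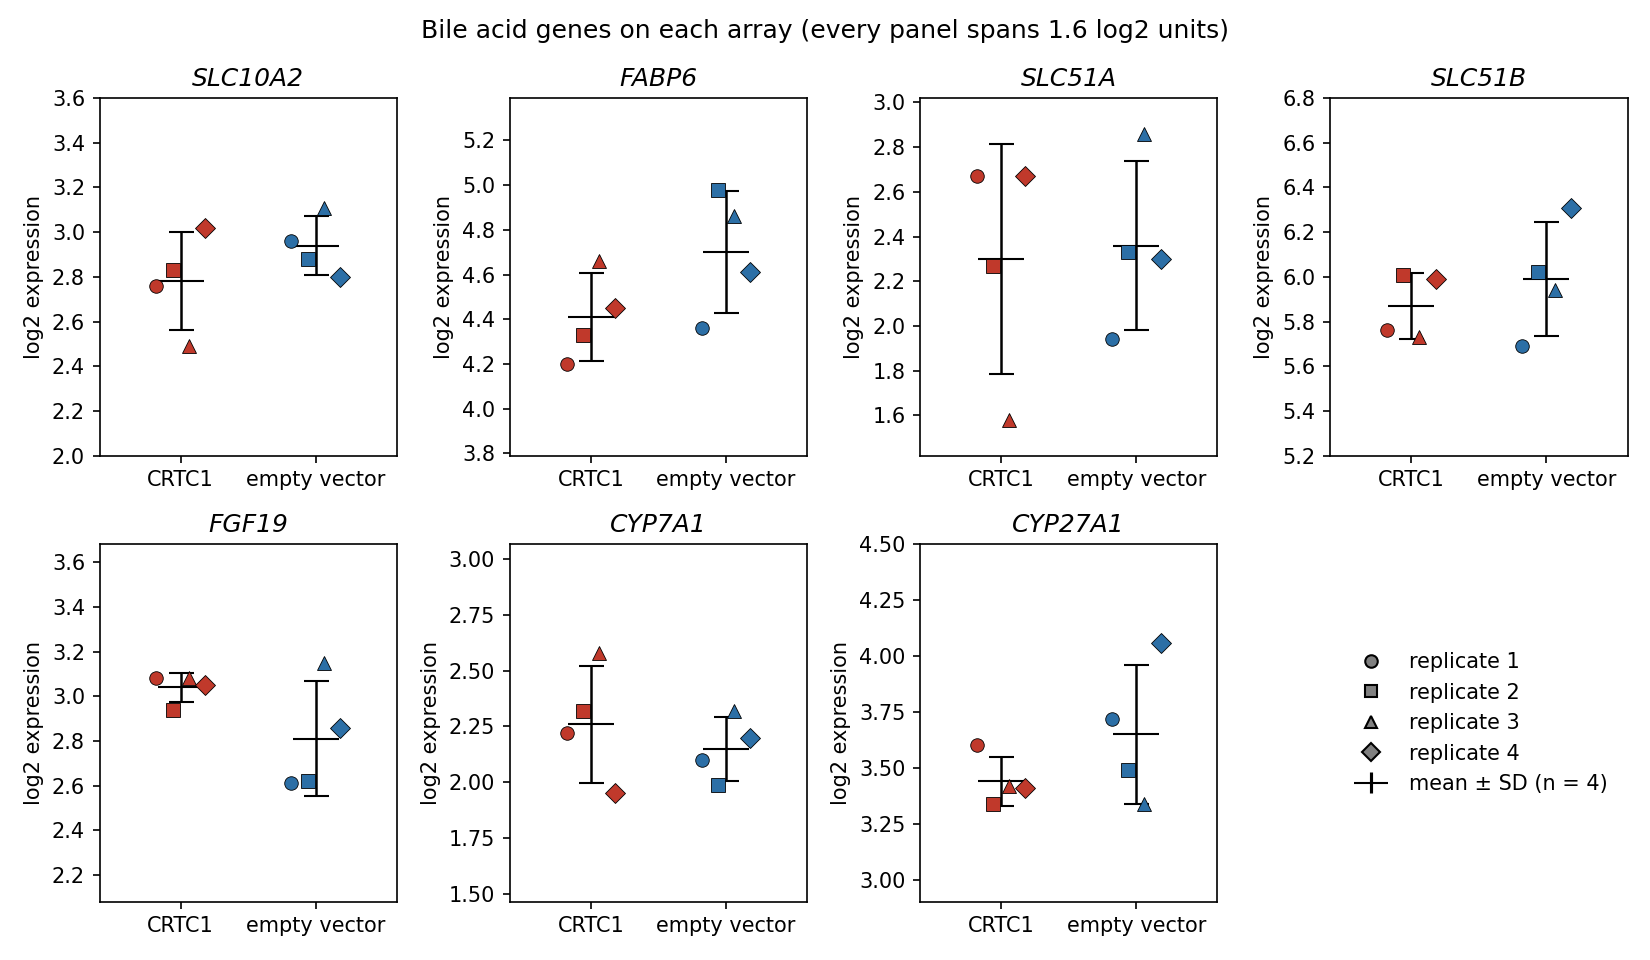
Log2 expression of the 7 bile acid genes on each array, CRTC1 arrays in red on the left and empty vector arrays in blue on the right of each panel; symbols mark the replicate number, bars the mean and SD of 4 arrays, and every panel spans 1.6 log2 units. The groups overlap in all 7 panels, and SLC51A has the widest spread, 1.28 log2 units.

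The uptake carrier SLC10A2 (Entrez Gene 6555) had log2 expression of 2.76, 2.83, 2.49 and 3.02 in CRTC1 cells, against 2.96, 2.88, 3.11 and 2.80 in empty vector cells. Of the CRTC1 arrays 2 lay below every empty vector array and the other two lay among those. The means were 2.78 ± 0.220 in CRTC1 cells and 2.94 ± 0.130 in empty vector cells (SD, n = 4 each), a log2 change of -0.16 with a 95% interval of -0.44 to 0.11 (adjusted p = 0.873 in limma). With an array left out the log2 change ran from -0.24 (without CRTC1 replicate 4) to -0.07 (without CRTC1 replicate 3).

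FABP6 (Entrez Gene 2172), the cytosolic binding protein, had the smallest p of the 7. It lay at 4.20, 4.33, 4.66 and 4.45 in CRTC1 cells and at 4.36, 4.98, 4.86 and 4.61 in empty vector cells. The lowest pair of values came from CRTC1 arrays and the highest pair from empty vector arrays, with the remaining 4 arrays interleaved. FABP6 averaged 4.41 ± 0.197 in CRTC1 cells and 4.70 ± 0.274 in empty vector cells (SD, n = 4 each). The log2 change of -0.29 (standard error 0.15, 95% interval -0.63 to 0.05) is a fold of 0.817, and it did not pass (adjusted p = 0.852 in limma). Its unadjusted p of 0.0839 ranked 2206th of 22458 genes, and 7.28% of all genes had a log2 change of that size or more in either direction. The exact two-sided permutation p over the 8 arrays was 0.171, where 0.0286 is the smallest that 4 against 4 can give. The interval reaches a 1.55-fold lower level in CRTC1 cells, so a difference of up to that size cannot be told from none at this precision. FABP6 was lower in CRTC1 cells in all 4 comparisons of arrays with equal replicate number, as were 9.34% of all genes. With the replicate number as a block its unadjusted p was 0.0389 in limma, a level that 7.47% of all genes reached, and its adjusted p was 0.650. The log2 change was -0.40 without empty vector replicate 1 and -0.20 without empty vector replicate 2. FABP6 is one of the windows with the inverted repeat shown above.

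The basolateral exporter is built from SLC51A and SLC51B, and the data on its subunits differed in precision. SLC51A (Entrez Gene 200931) lay at 2.67, 2.27, 1.58 and 2.67 in CRTC1 cells, against 1.94, 2.33, 2.86 and 2.30 in empty vector cells. CRTC1 replicate 3 was the lowest of all arrays and empty vector replicate 3 the highest, with the rest mixed. The means were 2.30 ± 0.515 in CRTC1 cells and 2.36 ± 0.377 in empty vector cells (SD, n = 4 each). The log2 change was -0.06 with the widest interval of the members, -0.66 to 0.54 (adjusted p = 0.981 in limma). It turned to 0.18 without CRTC1 replicate 3 and to 0.11 without empty vector replicate 3. SLC51B (Entrez Gene 123264) lay at 5.76, 6.01, 5.73 and 5.99 in CRTC1 cells, against 5.69, 6.02, 5.94 and 6.31 in empty vector cells. All 4 CRTC1 values lay inside the range of the controls. The means were 5.87 ± 0.147 in CRTC1 cells and 5.99 ± 0.255 in empty vector cells (SD, n = 4 each), a log2 change of -0.12 with an interval of -0.42 to 0.19 (adjusted p = 0.911 in limma). The log2 change was -0.22 without empty vector replicate 1 and -0.01 without empty vector replicate 4.

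FGF19 (Entrez Gene 9965), the hormone of the group, had the largest difference towards CRTC1. It lay at 3.08, 2.94, 3.08 and 3.05 in CRTC1 cells and at 2.61, 2.62, 3.15 and 2.86 in empty vector cells. The CRTC1 arrays were close together, 3 of the 4 control arrays lay below all of them, and empty vector replicate 3 lay above them all. The means were 3.04 ± 0.0650 in CRTC1 cells and 2.81 ± 0.257 in empty vector cells (SD, n = 4 each). The log2 change of 0.23 (standard error 0.13, 95% interval -0.05 to 0.51), a fold of 1.17, did not pass (adjusted p = 0.855 in limma, exact permutation p = 0.171). Without empty vector replicate 1 the log2 change was 0.16. Without empty vector replicate 3 it was 0.34, with an unadjusted p of 0.00718 and an adjusted p of 0.887 in limma. In that setting 5.58% of all genes had an unadjusted p under 0.05. FABP6 and FGF19, both known FXR targets, thus had differences of opposite sign, neither past the threshold. A test of one change against the other was not made.

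Of the synthesis enzymes, CYP7A1 (Entrez Gene 1581) lay at 2.22, 2.32, 2.58 and 1.95 in CRTC1 cells, against 2.10, 1.99, 2.32 and 2.20 in empty vector cells. The highest and the lowest array both belonged to the CRTC1 group. The means were 2.26 ± 0.261 in CRTC1 cells and 2.15 ± 0.142 in empty vector cells (SD, n = 4 each), a log2 change of 0.11 with an interval of -0.19 to 0.42 (adjusted p = 0.913 in limma). Leaving out CRTC1 replicate 4 gave 0.22, and leaving out CRTC1 replicate 3 gave 0.01. CYP7A1 is a liver enzyme, and its values stood far under the array medians in both groups. CYP27A1 (Entrez Gene 1593), which many tissues express, lay at 3.60, 3.34, 3.42 and 3.41 in CRTC1 cells and at 3.72, 3.49, 3.34 and 4.06 in empty vector cells. The CRTC1 values fell within the range of the controls except for replicate 2, which lay just under it. The means were 3.44 ± 0.110 in CRTC1 cells and 3.65 ± 0.312 in empty vector cells (SD, n = 4 each). The log2 change was -0.21 with an interval of -0.54 to 0.13 (adjusted p = 0.872 in limma). It was -0.31 without empty vector replicate 3 and -0.07 without empty vector replicate 4, the highest array for CYP27A1 as for SLC51B.

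**Figure D2:**
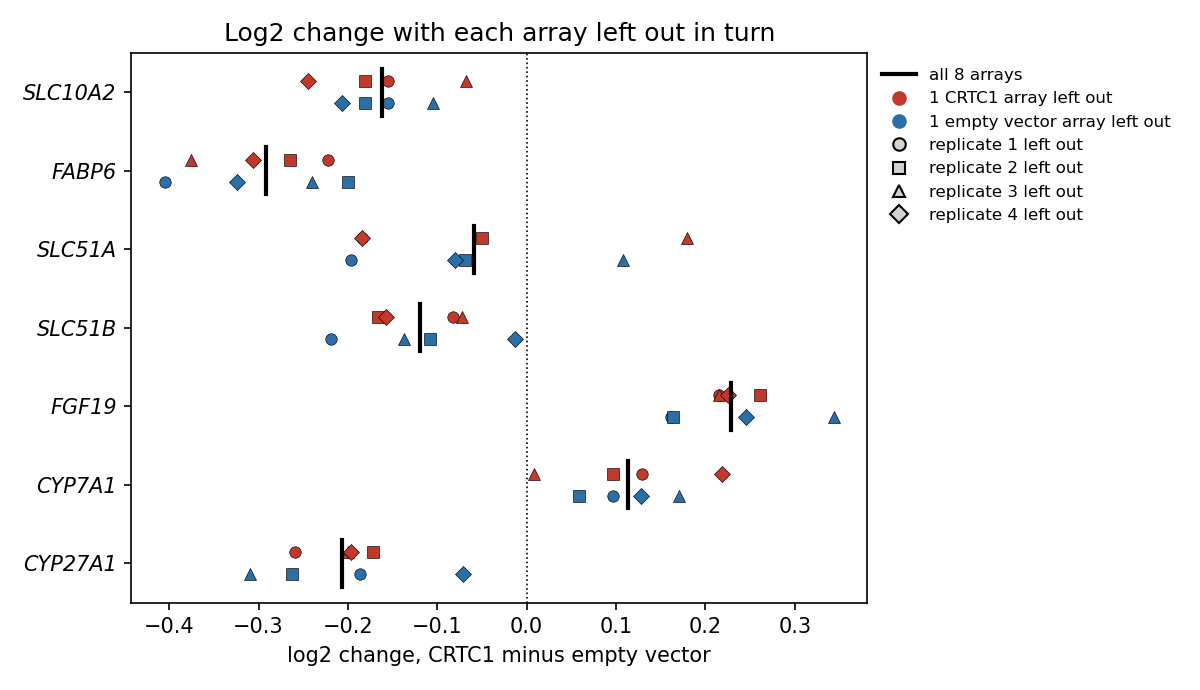
Log2 change of each bile acid gene, CRTC1 minus empty vector, with all 8 arrays (black line) and with each array left out in turn (red points, a CRTC1 array; blue points, an empty vector array; symbols mark the replicate number left out). FABP6 stays between -0.40 and -0.20 and FGF19 between 0.16 and 0.34, whereas SLC51A runs from -0.20 to 0.18.

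FABP6 and FGF19 kept their sign with any single array left out, as the plot of left-out arrays shows, and so did every member except SLC51A. This is no support for a change, since none had passed. The spread between arrays of one group was near that of other genes: the median pooled SD was 0.210 over the 7 members and 0.177 over all genes. SLC51A was the exception, with a pooled SD of 0.451.

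The members were also compared with each other over the 8 arrays, since genes of 1 pathway may vary together whatever the plasmid. Of 21 pairs, 9 had a positive Pearson r and 12 a negative one, from -0.629 to 0.712. After adjustment over the 21 pairs 0 passed in exact permutation tests of r (lowest adjusted p = 0.919), with 1 pair at an unadjusted p under 0.05. That pair was SLC10A2 and SLC51A, the entry carrier and a subunit of the exit carrier, with r = 0.712 (exact permutation p = 0.0482) and Spearman's rho = 0.595 (exact permutation p = 0.132). Leaving out the 2 arrays farthest from the SLC10A2 median gave r = -0.124, so the relation rested on those arrays. The SLC51A and SLC51B subunits had r = 0.316 (exact permutation p = 0.451) and rho = 0.286 (exact permutation p = 0.501), and r = 0.0920 without 2 arrays. FABP6 and SLC51B, the genes with the inverted repeat, had r = 0.321 (exact permutation p = 0.440) and rho = 0.286 (exact permutation p = 0.501), and r = 0.105 without 2 arrays. FABP6 and FGF19 had r = -0.148 (exact permutation p = 0.720) and rho = 0.0952 (exact permutation p = 0.840), and r = 0.641 without 2 arrays. The adjusted p of r was 0.919 for each of these 4 pairs.

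**Figure D3:**
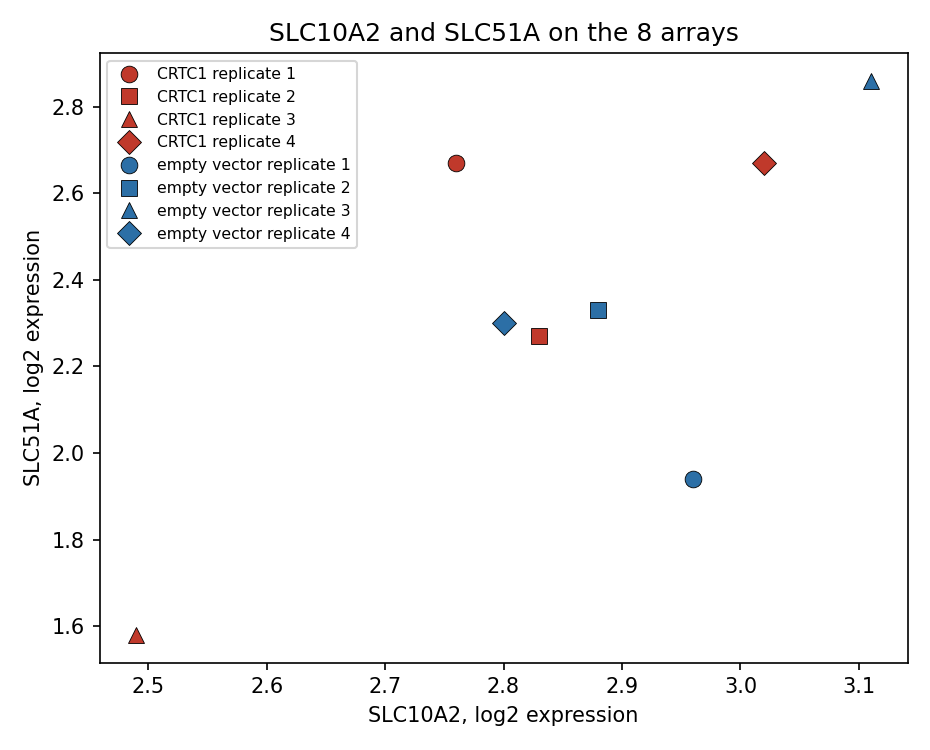
Log2 expression of SLC51A against SLC10A2 on the 8 arrays, CRTC1 in red and empty vector in blue, with symbols for the replicate number. CRTC1 replicate 3 at the lower left and empty vector replicate 3 at the upper right set the correlation of 0.712, which is -0.124 without them.

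Among all other genes, the most alike to each member over the 8 arrays were found by Pearson's r, given here as a description. For FABP6 they were TRDV1 and PDCD2L, both at 0.961, and for SLC10A2 LOC284379 at 0.961 and XRCC4 at 0.958. For SLC51A they were SERPINB4 at 0.975 and MIR1281 at 0.940, and for SLC51B HSPBP1 at 0.973 and MRPL50 at 0.969. None of these belongs to the bile acid lists. For FGF19 they were CXorf58 at 0.977 and HMGA1 at 0.967, for CYP7A1 ZNF649 at 0.967 and GALNT13-AS1 at 0.965, and for CYP27A1 PHLDA3 at 0.970 and LINC02901 at 0.959. Each member had between 19 and 38 genes above an r of 0.9, out of 22451 genes compared over only 8 arrays. How many would exceed it by chance was not computed, so neither the names nor the counts are read as shared regulation. These points also share the arrays and their normalization.

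The wider pathway gave the same picture. Over 7 lists of receptors, FGF receptors, other synthesis enzymes, other carriers, detoxification enzymes and relatives of FABP6 and SLC10A2, 70 of 81 genes were measured, each counted once. In limma 0 of 70 passed in either direction. At an unadjusted p under 0.05 there were 0 higher and 2 lower genes (VDR and CYP7B1), a share of 2.86% beside 5.94% of all genes. The median log2 change was -0.02, with 28 higher and 42 lower means in CRTC1 cells.

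Of the receptors and regulators of bile acid genes, 12 of 18 were measured, 6 with a higher and 6 with a lower mean in CRTC1 cells, and 0 passed. FXR itself (NR1H4) was not analysed here. VDR, the vitamin D receptor, which the bile acid lithocholic acid also activates, lay at 5.42, 5.89, 5.96 and 5.93 in CRTC1 cells, against 6.00, 6.22, 6.15 and 6.34 in empty vector cells. All 4 CRTC1 arrays lay below all 4 control arrays, as in 2.06% of all genes. The log2 change was -0.38 with an interval of -0.68 to -0.08, and it did not pass (adjusted p = 0.837 in limma, exact permutation p = 0.0286). With an array left out it ran from -0.44 (without empty vector replicate 1) to -0.25 (without CRTC1 replicate 1). GPBAR1, the bile acid receptor of the cell surface, differed by 0.29 on the log2 scale (adjusted p = 0.864), and S1PR2, a sphingosine phosphate receptor also stimulated by conjugated bile acids, -0.13 (adjusted p = 0.864). NR0B2, which encodes the FXR-induced repressor SHP, averaged 3.22 ± 0.252 in CRTC1 cells and 3.30 ± 0.121 in empty vector cells (SD, n = 4 each), a log2 change of -0.08 (adjusted p = 0.939 in limma).

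FGF19 signals through FGFR4 with the coreceptor beta-klotho, encoded by KLB. FGFR4 lay between 7.70 and 7.85 in CRTC1 cells and between 7.68 and 7.98 in empty vector cells, a log2 change of -0.10 with an interval of -0.31 to 0.11 (adjusted p = 0.882 in limma). KLB lay between 2.46 and 2.99 in CRTC1 cells and between 2.54 and 2.74 in empty vector cells, with a change of 0.07 (adjusted p = 0.938 in limma). FGFR2 had -0.11 (adjusted p = 0.878). Of the 8 genes of FGF19 receptors and endocrine FGFs, 4 were higher in mean and 4 lower, and 0 passed.

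Of the other synthesis and conjugation genes 15 of 19 were measured, 5 higher and 10 lower in mean, with 0 past the threshold. CYP7B1, the oxysterol hydroxylase of the alternative pathway, had a log2 change of -0.33 (adjusted p = 0.837 in limma), with 3 of 4 CRTC1 arrays below all controls. STAR, the mitochondrial cholesterol importer, had -0.36 (adjusted p = 0.838) and FDX1, the ferredoxin that feeds electrons to CYP27A1, -0.14 (adjusted p = 0.864). CYP7B1 and STAR lay under the median level. The log2 change of CYP7B1 was -0.20 without empty vector replicate 2, and that of STAR was -0.21 without CRTC1 replicate 3. The 15 other bile acid carriers had 8 higher and 7 lower means, and 0 passed. ABCB4, a phospholipid exporter of bile canaliculi, had a change of 0.26 (adjusted p = 0.855), the hepatic bile acid carrier SLC10A1 0.25 (adjusted p = 0.863) and the organic anion carrier SLCO2B1 -0.13 (adjusted p = 0.873).

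Of the 6 detoxification genes 2 were higher and 4 lower in mean. UGT2B4, a glucuronosyltransferase that takes bile acids, had the largest difference of the pathway at -0.62, with an interval of -1.26 to 0.02 (adjusted p = 0.838 in limma). UGT2B4 lay at 2.72, 2.09, 2.38 and 1.67 in CRTC1 cells, against 2.43, 3.03, 2.39 and 3.48 in empty vector cells, and the groups overlapped. Its mean of 2.52 lay under the median level, and its log2 change was -0.79 without CRTC1 replicate 1 and -0.40 without empty vector replicate 4. It is one of a family of similar genes, so its own level is uncertain. CYP3A4, which hydroxylates bile acids, had a change of 0.12 (adjusted p = 0.919). Among 9 relatives of FABP6, 8 were lower and 1 higher in mean, all by small amounts, from -0.21 for FABP12 (adjusted p = 0.882) to 0.01. FABP7 had -0.11 (adjusted p = 0.923), and the enterocyte retinol-binding protein gene RBP2 -0.05 (adjusted p = 0.967). Of the 6 relatives of SLC10A2, 3 were higher and 3 lower, with SLC10A7 at 0.16 (adjusted p = 0.868).

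**Figure D4:**
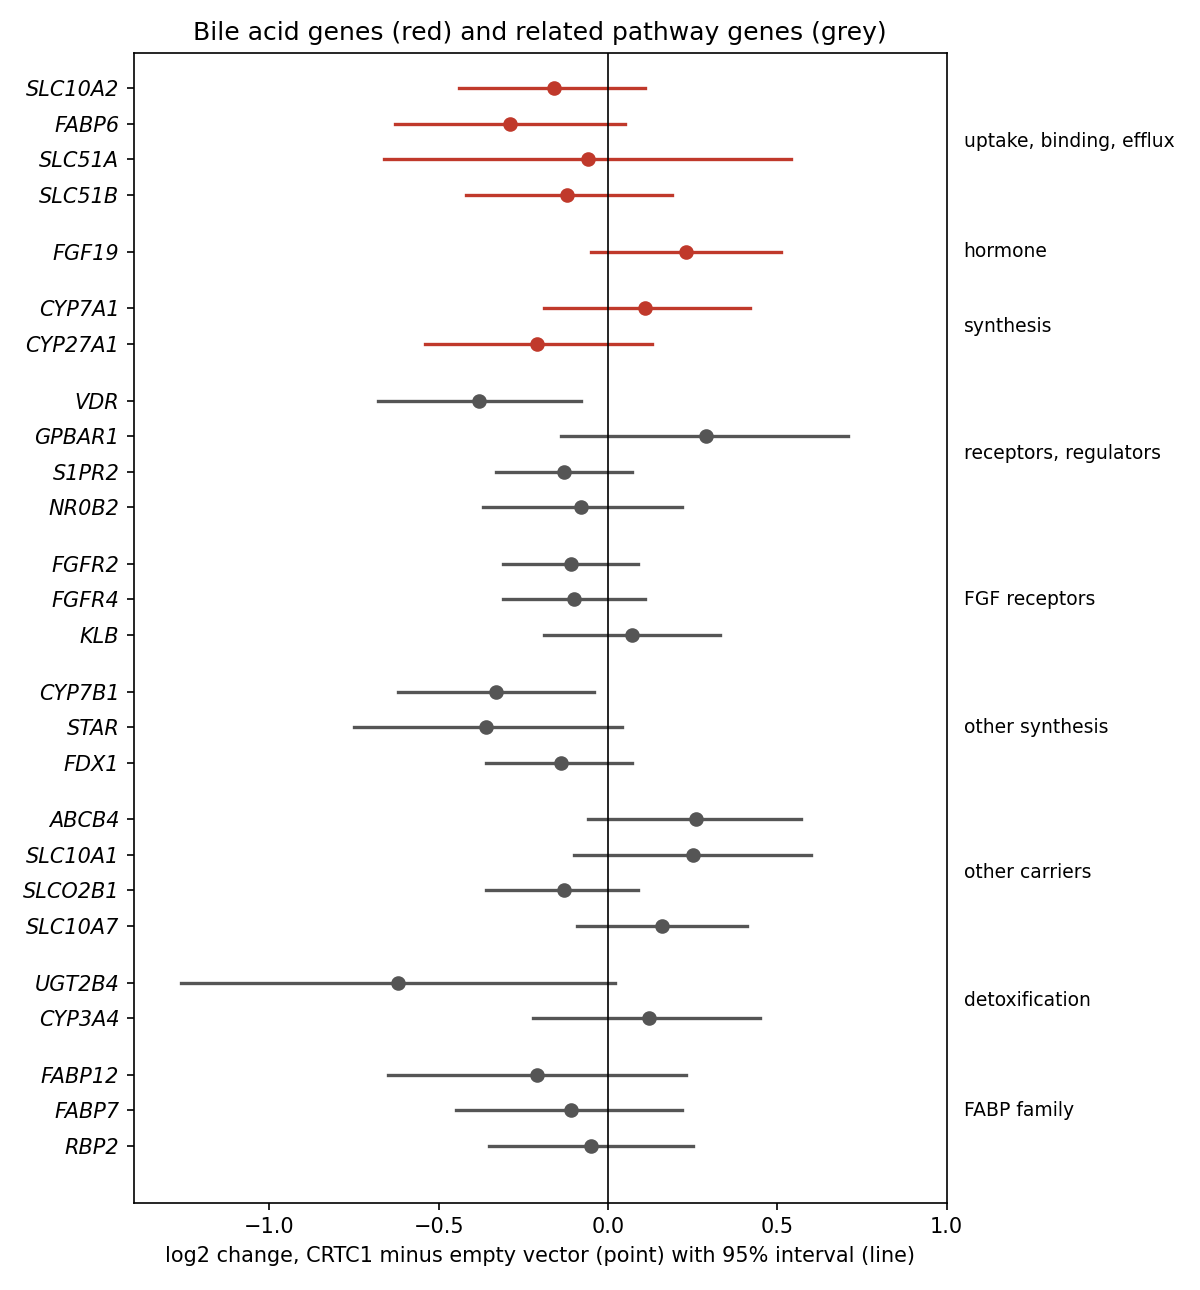
Log2 change, CRTC1 minus empty vector, with its 95% interval for the 7 bile acid genes (red) and 19 related genes (grey), grouped by role, from the fit over all genes with 4 arrays per group. The intervals of all 7 bile acid genes cross 0; those of VDR and CYP7B1 do not, but neither passed after adjustment over 22458 genes.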

How the data were processed

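Total RNA was biotinylated with an Affymetrix whole-transcript kit, per the labels' protocols. The deposited log2 values, 1 per probe set and array, ran from 0.83 to 12.87. The submitters' processing notes name Partek, with no role. How background was corrected and how probes were combined and normalized is not stated in the labels or file header, so a change common to most genes could be hidden. Of 23786 probe sets, 22458 had 1 symbol, 0 several and 1328 none. The symbols were updated by Entrez ID through RefSeq (GRCh38.p14), which matched all 22458.

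The group comparison used limma 3.58.1 (R 4.3.3) with 1 coefficient per group and empirical Bayes moderation over 22458 genes and 8 arrays. P-values were adjusted over all genes by the Benjamini-Hochberg method at a threshold of 0.05. Single values and pairs of members were tested by exact two-sided permutation. The limma steps were tested on simulated data with independent noise for each gene and array, so nothing shared by equal replicate numbers was simulated. Sequences came from RefSeq, where 5 of 7 members had a promoter window that was read. The genes to name were the 7 members, CRTC1, the 3 genes of smallest p per pathway list (2 for lists under 8 genes), NR0B2, FGFR4 and KLB, and the 2 genes most alike to each member. The members and lists were chosen with earlier results of these data known. Alternatives were a replicate block, quantile normalization, median centring, a filter on dim genes, array weights, no moderation, a variance trend with robust moderation, inclusion of unnamed probe sets and leaving out each array.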

Additional observations from a re-analysis of the deposited data

Results flagged for a closer look

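Among 54 groups of 4 arrays of the named genes, 3 held an array far from the other 3 by Dixon's test. About 1 in 20, here 2.7, would be so by chance. In CRTC1 cells the VDR value of 5.42 on replicate 1 stood under 5.89 to 5.96 on the rest, and without it its log2 change was -0.252, against -0.378 with all arrays. In empty vector cells the STAR value of 2.13 on replicate 2 stood under 2.57 to 2.62 on the rest, and without it the log2 change was -0.473, against -0.357 with all arrays. The FABP7 value of 1.98 on empty vector replicate 1 stood under 2.37 to 2.43 on the remaining controls, and without it the log2 change was -0.218, against -0.114 with all arrays. No group of arrays of the 7 bile acid genes held such an array.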

How the results depend on the processing

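No member passed in any of the 16 alternatives run, with adjusted p-values from 0.650 to 0.996. In limma 0 members had an unadjusted p under 0.05 with all arrays. With the replicate block 1 did, FABP6, beside 1677 of all genes. With an array left out there were 0 to 1. That 1 was FABP6 without CRTC1 replicate 3, beside 5.26% of all genes, and without empty vector replicate 1, beside 6.35%. It was FGF19 without empty vector replicate 3, beside 5.58% of all genes. The replicate numbers were not taken as pairs. The labels do not say what equal numbers share, and deviations of same-numbered arrays correlated at 0.0385 to 0.251, not all above 0.1. Arrays of unequal number correlated at -0.136 to 0.0245, so each array correlated best with its own number. The main fit has no block and does not use what equal numbers may share. The exact sign-flip test over equal numbers cannot go below 0.125, the value FABP6 had. Genes past the threshold numbered 2 when variances followed a trend with robust moderation, H3C4 being the other. Genes at an unadjusted p under 0.05 numbered 829 of 11229 when dim genes were removed, a setting that gives no value for the 5 members under the median level. Of 107 member values in the alternatives 105 kept their sign. The exceptions were of SLC51A, which ran from -0.197 to 0.180 with an array left out. Of 293 values of the other named genes 288 kept their sign. KLB ran from -0.0227 to 0.153, NR0B2 from -0.173 to 0.0152 and RBP2 from -0.122 to 0.0177 with an array left out. With the group means subtracted or 2 arrays left out 0 pairs of members passed. The causes were not tested. Scanner data were not used here, so signal over background could not be measured.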

Other observations

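Some genes, intestinal ones among them, were lowest on the replicate 1 array of both groups, a pattern chosen after the values were seen. APOB, the structural apolipoprotein of chylomicrons, lay at 6.01, 7.05, 7.13 and 7.28 in CRTC1 cells, against 5.90, 6.83, 7.15 and 7.20 in empty vector cells. FABP1, the liver fatty acid-binding protein, lay at 10.15, 10.45, 10.50 and 10.79 in CRTC1 cells, against 10.13, 10.44, 10.52 and 10.74 in empty vector cells. Of 17 enterocyte markers, 5 (SI, FABP1, APOB, CDX2 and DPP4) were lowest on replicate 1 in both groups, beside 10.9% of all genes. The pattern was not counted in the other marker lists. TTR of the hepatocyte list also had it, at 9.02 on replicate 1 in CRTC1 cells and 9.21 in empty vector cells. Of the 7 bile acid genes only FABP6 was, at 4.20 in CRTC1 cells and 4.36 in empty vector cells. The labels do not say what the replicate 1 arrays share, and no test was made.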
